A study of Homo sapiens with 10 samples.

Results

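The EGR and AP-1 transcription factors were examined as 10 genes, taken by symbol from gene tables that list 60558 genes: EGR1, EGR2, EGR3, FOS, FOSB, FOSL1, FOSL2, JUN, JUNB and JUND. Each symbol matched a single row. RNA came from PC3, an established human prostate cancer line first grown from a bone metastasis, labelled wild type. In 5 libraries the cells had been cultured for 3 days together with human bone marrow adipocytes (cocultivated), and in the other 5 they had not (non-cocultivated). The labels also number the libraries by batch, and each of the 5 batches holds 1 cocultivated and 1 non-cocultivated library. How the adipocytes were kept apart from the cancer cells, and how many marrow donors were used, is not given in the sources used here, and the labels do not say whether libraries of a group are separate cultures, so p-values measure the spread between these libraries.

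EGR proteins are zinc finger factors that bind GC-rich DNA. AP-1 is a family of leucine zipper dimers in which a FOS protein pairs with a JUN protein, while JUN proteins can also pair among themselves. Many of these genes are immediate early genes: growth factors, cytokines and stress switch them on within minutes through MAP kinases, serum response factor (SRF) and its ternary complex partners, and the transcripts then decay fast. FOSL1 (the protein FRA-1) and JUND are known for steadier expression in cultured cancer cells.

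With adipocytes, 5 of the 9 members that could be tested rose and 0 fell, by edgeR's quasi-likelihood test with a Benjamini-Hochberg adjusted p under 0.05. The 5 were EGR1, JUN, FOSL2, JUNB and FOSL1. Across all 15690 genes tested 33.6% were called, 17.9% as higher and 15.8% as lower. DESeq2 also called 0 members as lower, and 0 members had an estimate below 0 with an unadjusted edgeR p under 0.05. Other fits differed: on TPM values limma called FOSB as lower (adjusted p 0.0126 with a pseudocount of 0.1). Without batches 1 and 5, a choice made after the values were seen, edgeR called FOS as lower (adjusted p 0.0366). EGR1 went up 11.0-fold but from a trace, and the abundant members moved by much less: JUN 1.83-fold, FOSL2 1.33-fold, JUNB 1.19-fold and FOSL1 1.16-fold. FOS and FOSB, the members most closely tied to acute stimulation, were not called and had estimates below 0. The median log2 fold change was 0.23 over the 9 members tested and -0.01 over all genes tested.

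**Figure D1:**
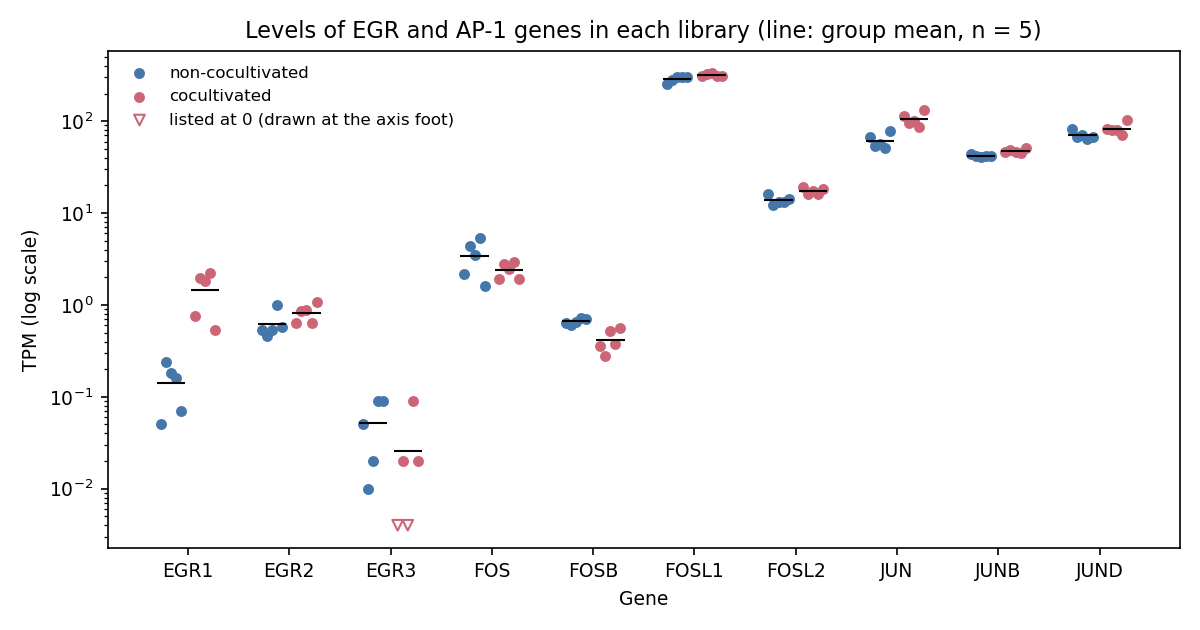
Deposited TPM (length-normalised transcript level, log axis) of the 10 genes in each library, with non-cocultivated libraries in blue, cocultivated ones in red, and a line at the mean of 5. FOSL1 has at least 257 TPM in every library, the JUN genes 41.1 to 133 TPM, and EGR1 rises from at most 0.24 to at least 0.54 TPM.

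EGR1, the founding member of its family and a classic serum-induced gene, is shown with the stretch that precedes its transcription start. That stretch carries SRF-binding elements, a kind of element through which EGR1 is known to be induced. Sequence further upstream was not searched. JUN is shown beside EGR1 because JUN had the second largest increase and is known to regulate itself through an AP-1-like element. Both are the 250 bases before the start in RefSeq's GRCh38.p14 annotation, 5′ to 3′ on the gene's strand. The deposited tables name no genome build, so these positions belong to RefSeq and not to the study's alignment. Capitals mark CArG boxes (the SRF element) and one GCGNGGGCG match in EGR1, and TGACATCA in JUN.
EGR1, chr5:138465229-138465478, plus strand: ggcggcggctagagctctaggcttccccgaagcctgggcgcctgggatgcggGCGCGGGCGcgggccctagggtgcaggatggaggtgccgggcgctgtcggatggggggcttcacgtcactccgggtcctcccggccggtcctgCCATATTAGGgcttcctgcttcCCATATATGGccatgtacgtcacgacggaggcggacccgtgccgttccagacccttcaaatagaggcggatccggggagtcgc
JUN, chr1:58784048-58784297, minus strand: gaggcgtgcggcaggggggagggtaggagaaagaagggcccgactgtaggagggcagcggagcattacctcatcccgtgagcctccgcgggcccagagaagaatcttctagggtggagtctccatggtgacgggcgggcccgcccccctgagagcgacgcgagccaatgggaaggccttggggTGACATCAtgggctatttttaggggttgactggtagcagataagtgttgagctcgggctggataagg

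In EGR1 the CArG boxes lay at positions -105 to -96 and -83 to -74 from the start, and the EGR-type element GCGNGGGCG at -198 to -190. In JUN the sequence TGACATCA lay at -67 to -60. On both strands of the 300-base windows, of which 50 bases lie after the start, a CArG box occurred in 1.29% of 35116 promoters, TGANTCA in 7.71%, TGACGTCA in 1.85%, TGACATCA in 2.61% and GCGNGGGCG in 9.43%. Of the members, 8 had an entry, EGR2 with 3 starts, of which 1 held a CArG box and 1 held GCGNGGGCG. FOSL2 held TGANTCA and JUND held TGACGTCA, while the windows of FOS, FOSB and JUNB held none of the 5 patterns. These are matches of letters only, and the SRF element known for FOS lies upstream of this window.

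EGR1 (ENSG00000120738) had 5, 26, 16, 14 and 7 expected counts in non-cocultivated libraries 1 to 5 and 69, 179, 148, 227 and 58 in cocultivated libraries 1 to 5. Per transcript length, its level was 0.05, 0.24, 0.18, 0.16 and 0.07 TPM without adipocytes and 0.76, 1.97, 1.82, 2.24 and 0.54 TPM with them. The groups did not overlap, which was true of 25.4% of all genes tested (13.7% higher and 11.7% lower with adipocytes) and of EGR1, FOSL2, JUN and JUNB among the members, and in both groups the libraries of batches 1 and 5 were the lowest. The rise was 3.46 ± 0.48 on the log2 scale (SE, n = 5 and 5), with an edgeR quasi-likelihood adjusted p of 1.03e-04 and a 95% interval of 2.42 to 4.49. Within batches 1 to 5 the cocultivated library held 16.4, 8.68, 10.1, 15.2 and 8.51 times the CPM (the count relative to library size, TMM-scaled) of its partner. EGR1 passed the filter on low counts through the cocultivated libraries, and the non-cocultivated level rests on a few counts, so the size of the fold is less certain than its direction.

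EGR2, a relative known from nerve myelination and lymphocytes, stayed low: 0.844, 0.852, 1.05, 1.14 and 1.09 CPM without and 1.07, 1.22, 1.12, 1.13 and 1.23 CPM with adipocytes. The groups overlapped and the gene was not called (log2 fold change 0.22 ± 0.13, 95% interval -0.07 to 0.50, edgeR adjusted p 0.226). EGR3, another relative, had 8, 2, 2, 6 and 2 counts without and 0, 3, 0, 1 and 1 with adipocytes. It did not pass the filter, so the main fit did not test it. Its mean was 0.0843 CPM without and 0.0235 CPM with adipocytes, and the groups overlapped. With no filter on low counts edgeR called 0 members as lower. A count of 0 allows up to 3 counts, or 0.0582 to 0.0768 CPM of the library total, so these few counts leave a difference undecided. In TPM, EGR2 made up 64.8% to 84.4% of the summed EGR transcripts without adipocytes and 21.5% to 65.9% with them, and EGR1 7.81% to 33.8% and 32.9% to 75.4%. The summed EGR level stayed low in every library, at 0.640 to 1.24 TPM without and 1.39 to 2.97 TPM with adipocytes.

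JUN (ENSG00000177606), the AP-1 subunit with the strongest activation domain of its family, gave 152, 127, 135, 126 and 186 CPM without adipocytes and 265, 243, 242, 221 and 356 CPM with them. Every cocultivated library lay above every non-cocultivated one, and batches 1 and 5 were the highest in both groups. JUN rose by 0.87 ± 0.13 on the log2 scale (edgeR adjusted p 2.62e-04, 95% interval 0.58 to 1.16). The ratio within a batch was narrow, at 1.74, 1.91, 1.79, 1.76 and 1.91 for batches 1 to 5, although the level itself differed between batches.

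JUNB, which often restrains growth where JUN promotes it, was tight without adipocytes, at 48.5, 49.6, 47.8, 50 and 49.6 CPM, and reached 52.6, 60.7, 54.1, 56.5 and 68.1 CPM with them. The groups did not overlap, and JUNB rose by 0.25 ± 0.06 (log2, edgeR adjusted p 0.00739). JUND had 79.2, 62.4, 64.9, 65.5 and 67.7 CPM without and 73.9, 76.9, 73.8, 70.8 and 102 CPM with adipocytes. Its groups overlapped, it was lower with adipocytes in batch 1 only, and it was not called (0.23 ± 0.10, 95% interval 0.02 to 0.44, edgeR adjusted p 0.0910). With the batch as a block, JUND was called as higher (0.22 ± 0.08, edgeR adjusted p 0.0486), as it was without batch 1 (0.31 ± 0.10, adjusted p 0.0276). Without batch 5, which holds the highest library, its log2 fold change was 0.13 and the edgeR adjusted p 0.202.

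**Figure D2:**
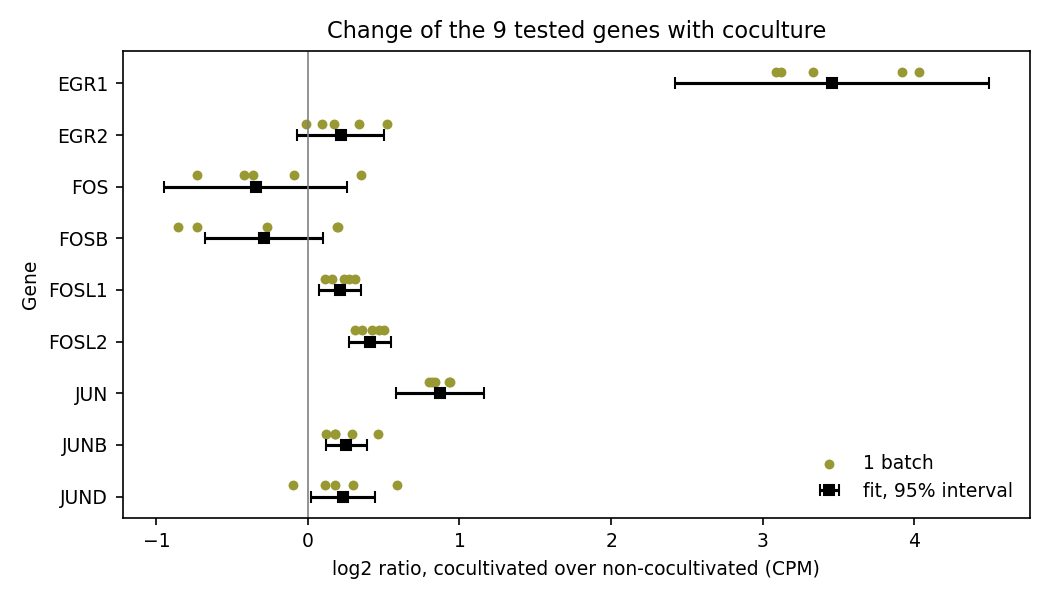
Log2 ratio of cocultivated over non-cocultivated CPM for the 9 tested genes: squares are the edgeR estimates with 95% intervals, and dots the ratio within each of the 5 batches. EGR1 stands at 3.46, JUN at 0.87, and FOS (-0.34) and FOSB (-0.29) have intervals that include 0.

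FOSL1 (ENSG00000175592) was the most abundant member, with 238, 277, 293, 300 and 293 CPM without adipocytes and 294, 334, 326, 323 and 347 CPM with them. The groups touched, since the lowest cocultivated library lay below the highest non-cocultivated one, but in each of the 5 batches the cocultivated library was higher. FOSL1 rose by 0.21 ± 0.06 on the log2 scale (edgeR adjusted p 0.0219). This call was lost without batch 2 (adjusted p 0.102), without batch 3 (0.0594), without cocultivated replicate 2 (0.0530) and on TPM values (limma adjusted p 0.0972).

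FOSL2 (the protein FRA-2) gave 67.9, 55.2, 59.7, 59.6 and 66.3 CPM without and 83.9, 78.2, 80.1, 76.3 and 91.8 CPM with adipocytes. The groups did not overlap and again batches 1 and 5 were the highest in both. FOSL2 rose by 0.41 ± 0.06 on the log2 scale (edgeR adjusted p 3.23e-04).

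FOS, the prototype partner of JUN, had 2.68, 5.35, 4.19, 7.10 and 2.21 CPM without adipocytes and 2.52, 4.00, 3.27, 4.28 and 2.82 CPM with them. The groups overlapped, and the libraries of batches 1 and 5 were the lowest in both, as for EGR1. FOS was not called (log2 fold change -0.34 ± 0.28, 95% interval -0.95 to 0.26, edgeR adjusted p 0.380). Within batches 1 to 5 the ratio was 0.938, 0.749, 0.780, 0.603 and 1.28. Without batches 1 and 5, an alternative chosen after the values were seen, FOS was called as lower (-0.52 ± 0.17, adjusted p 0.0366).

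FOSB, a close FOS relative with a short splice form, had 1.05, 1.26, 0.977, 1.61 and 1.12 CPM without and 0.869, 0.757, 1.12, 0.887 and 1.28 CPM with adipocytes, and was not called (-0.29 ± 0.18, 95% interval -0.68 to 0.10, edgeR adjusted p 0.248). On the TPM scale the picture differed: the groups did not overlap, at 0.63, 0.60, 0.66, 0.72 and 0.71 TPM without and 0.36, 0.28, 0.52, 0.38 and 0.56 TPM with adipocytes, and limma called FOSB as lower (-0.58 ± 0.14 on log2(TPM + 0.1), adjusted p 0.0126). TPM divides by the mean length of the transcripts to which RSEM assigned reads, which ranged from 2267 to 3258 bases without and from 3050 to 3775 bases with adipocytes, over 13 listed transcripts and only 31 to 68 counts a library. FOSB also overlaps ERCC1 on the opposite strand in GENCODE v29, and ERCC1 had 1414 to 1948 counts. The kit is stranded but the strand setting of the counting is not given. JUNB overlaps HOOK2 in the same way (180.0 to 371 counts), FOSL2 overlaps FLJ31356 (1.94 to 10.8 counts) and EGR3 overlaps AC055854.1 (0 to 7 counts). On its own strand FOSL2 also overlaps AC104695.3 (0 to 1 counts). The expected counts of all 10 members were whole numbers within 0.005 in all 10 libraries, so within that tolerance RSEM divided no reads between these and other genes, the overlapping ones included.

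**Figure D3:**
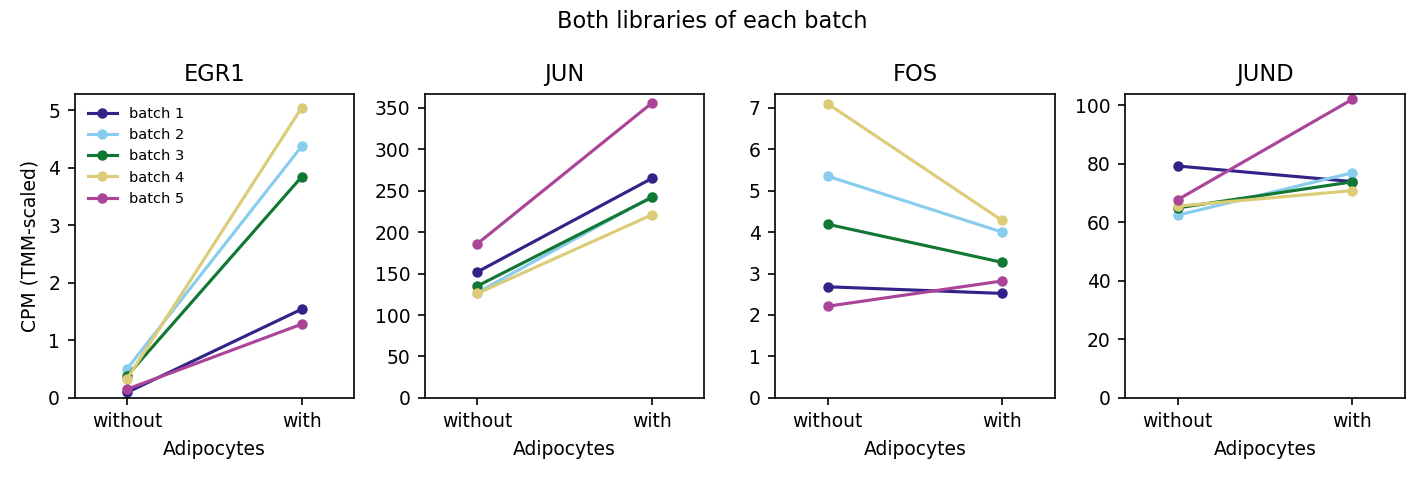
TMM-scaled CPM of EGR1, JUN, FOS and JUND in the non-cocultivated (left) and cocultivated (right) library of each batch, joined by a line. EGR1 and JUN rise in all 5 batches, batches 1 and 5 are low for EGR1 and FOS but high for JUN, and JUND in batch 5 reaches 102 CPM.

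The batches split EGR1, FOS, JUN and FOSL2 in the same way in both groups. In non-cocultivated libraries EGR1 lay at 0.0938 to 0.150 CPM in batches 1 and 5 and at 0.332 to 0.504 CPM in batches 2 to 4, and in cocultivated ones at 1.28 to 1.54 and 3.84 to 5.04 CPM. FOS followed the same order, at 2.21 to 2.68 against 4.19 to 7.10 CPM and at 2.52 to 2.82 against 3.27 to 4.28 CPM. JUN had the opposite order, at 152 to 186 against 126 to 135 CPM and at 265 to 356 against 221 to 243 CPM. The main fit left the batch out, so its standard errors include this spread between batches. With the batch as a block, the log2 fold change was 3.44 ± 0.17 for EGR1, 0.87 ± 0.03 for JUN and 0.41 ± 0.03 for FOSL2. FOS was again not called (-0.28 ± 0.14, edgeR adjusted p 0.122). The grouping of batches was chosen after the values were seen and was not tested, and what the batches differ in is not given in the sources used here.

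Per length, the members spanned a wide range of levels. Without adipocytes the mean level was 289 ± 19.3 TPM for FOSL1 (mean ± SD), 70.6 ± 7.18 for JUND, 61.4 ± 11.1 for JUN, 42.3 ± 1.03 for JUNB and 13.8 ± 1.49 for FOSL2. FOS followed at 3.41 ± 1.54 TPM, FOSB at 0.664 ± 0.0513 and EGR2 at 0.620 ± 0.211, which did not differ beyond their spread, then EGR1 at 0.140 ± 0.0791 and EGR3 at 0.0520 ± 0.0377. With adipocytes JUN, at 106 ± 18.1 TPM, stood above JUND, at 82.6 ± 11.6, and EGR1, at 1.47 ± 0.764 TPM, stood above EGR2 (0.822 ± 0.189) and FOSB (0.420 ± 0.117).

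FOSL1 alone supplied 93.2% to 94.8% of the summed FOS family TPM without adipocytes and 93.5% to 94.4% with them. FOS supplied at most 1.66%. The summed FOS family lay at 276 to 322 TPM without and 328 to 353 TPM with adipocytes. In the JUN family the share of JUN went from 32.6% to 41.4% without to 42.8% to 47.3% with adipocytes, and that of JUND from 36.2% to 42.7% to 33.6% to 35.6%, neither with overlap between the groups. The summed JUN family lay at 158 to 194 and 202 to 286 TPM.

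**Figure D4:**
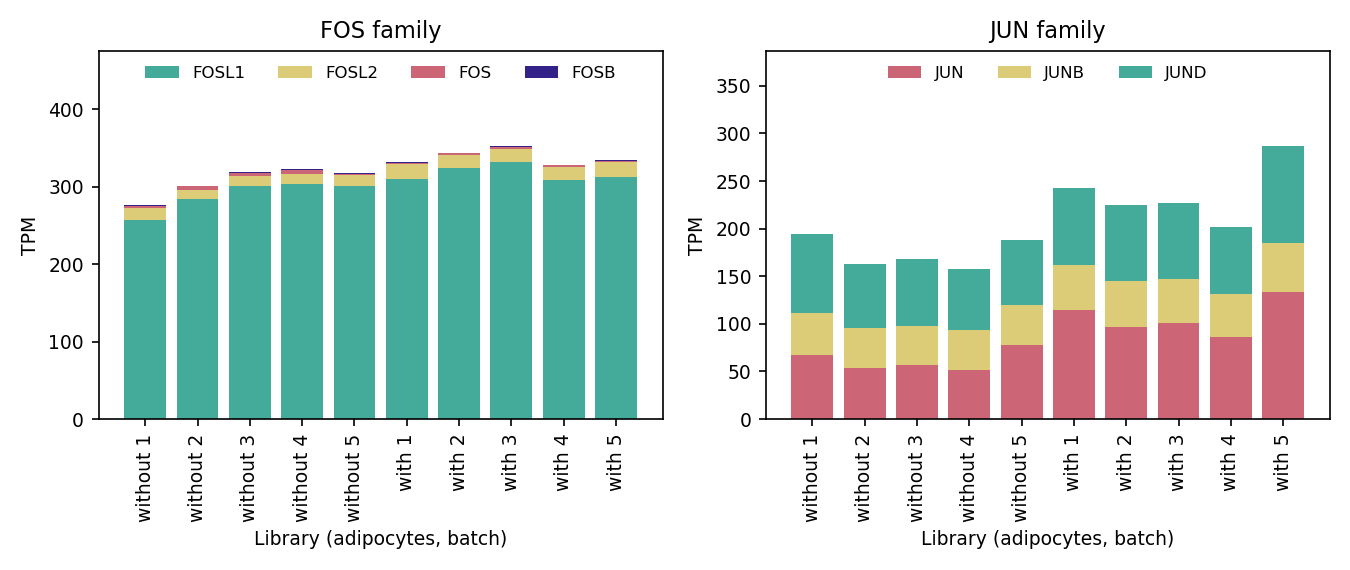
Summed TPM of the FOS family (left) and the JUN family (right) in each library, stacked by gene, with libraries ordered by group (without or with adipocytes) and batch. FOSL1 fills at least 93.2% of each FOS bar, and the JUN segment is the part of the right bars that grows most, from 61.4 to 106 TPM on average.

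Other proteins that pair with AP-1 or hold EGR in check were read from the same fit. Of 18 such genes 14 were tested, of which 6 rose and 0 fell by edgeR's test, and DESeq2 called 0 as lower too; 0 had an estimate below 0 with an unadjusted p under 0.05. That is 42.9% higher, beside 17.9% higher and 15.8% lower of all genes. With library totals as scaling 1 partner was called lower, and on TPM values 2 were. JDP2, a repressive AP-1 partner, rose by 1.66 ± 0.18 on the log2 scale from 0.657 to 2.08 CPM. ATF3, a stress-induced partner, rose by 1.05 ± 0.23, from 14.6 to 30.3 CPM. ATF4, the amino acid stress factor, and MAFG, a small MAF protein, each rose by 0.49. The EGR corepressors NAB1 (0.01 ± 0.08) and NAB2 (-0.05 ± 0.06) were not called, although NAB2 is a known EGR1 target, and EGR4 had 0.0186 CPM without and 0 CPM with adipocytes.

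Among 30 other immediate early genes 29 were tested, and 16 rose and 5 fell (55.2% and 17.2%, beside 17.9% and 15.8% of all genes). On TPM values limma called 7 of them higher with a pseudocount of 0.1 and 8 with 1; without batch 3 edgeR called 10 higher and 3 lower, and without batch 4, or without cocultivated replicate 2 or 4, 3 were lower. The phosphatase DUSP1, which switches MAP kinases off, rose from 18.5 to 41.9 CPM (1.18 ± 0.15), KLF6 from 70.4 to 133 CPM (0.92 ± 0.06), the mRNA decay factor ZFP36 from 3.83 to 6.48 CPM (0.76 ± 0.13) and IER5 from 34.6 to 52.6 CPM (0.60 ± 0.07). DUSP2 (-0.62 ± 0.09), CCN2 (-0.36 ± 0.13), SGK1 (-0.35 ± 0.08), MYC (-0.24 ± 0.04) and IER5L (-0.19 ± 0.06) fell; IER5L is named to complete the count. NR4A1 and NR4A2, orphan receptors often induced together with EGR1, were not called (0.18 ± 0.33 and 0.05 ± 0.17). Their relative NR4A3 was called higher, from 2.78 to 3.38 CPM (0.28 ± 0.10, edgeR adjusted p 0.0466). IER5L, NR4A1, NR4A2 and NR4A3 were picked after their values were seen. Handling stress can raise heat shock genes together with immediate early genes, and its part in these libraries was not tested. Heat shock genes had 2 higher and 3 lower of 14 (14.3% and 21.4%, near the 17.9% and 15.8% of all genes). These counts moved with the fit: 2 and 7 with the batch as a block, 0 and 7 on library totals, and 0 and 5 on log2(TPM + 1). Leaving out batch 2 gave 0 and 1. DNAJB4 (0.29 ± 0.08) and HSPB1 (0.25 ± 0.09) rose, and HSPA4L (-0.45 ± 0.12), HSPE1 (-0.27 ± 0.06) and HSP90AB1 (-0.20 ± 0.06) fell. The inducible HSPA1A (-0.12 ± 0.06) and DNAJB1 (-0.08 ± 0.05), picked after their values were seen, were not called, but both were called lower on library totals (-0.17 and -0.13, adjusted p 0.0249 and 0.0157 by edgeR).

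Output and feedback genes of the ERK pathway, the main route to EGR1 and FOSL1, moved both ways: of 20 tested, 7 rose and 6 fell (35% and 30%, beside 17.9% and 15.8% of all genes). The feedback inhibitors SPRY1 (-1.22 ± 0.06) and SPRY4 (-1.10 ± 0.07) fell, from 114 to 48.8 and from 48.5 to 22.6 CPM, and so did DUSP6 and SPRED2 (both -0.29). EPHA4 (1.06 ± 0.12), the EGF receptor inhibitor ERRFI1 (0.84 ± 0.05), IL1RL1 (0.61 ± 0.11) and DUSP7 (0.31 ± 0.04) rose. Of 22 genes for SRF, its partners and the upstream kinases, 5 rose and 1 fell (22.7% and 4.55%, near the 17.9% of all genes that were higher). The count was 3 and 2 on library totals, 3 higher on TPM values, with no filter and without batch 2 or 4, and 9 and 2 without batches 1 and 5. The kinase RPS6KA3 rose by 0.52 ± 0.05, MAPK11 by 0.41 ± 0.09, the ternary complex factor ELK3 by 0.31 ± 0.03, MAP2K4 by 0.16 ± 0.05 and SRF by 0.14 ± 0.05, and MAP2K7 fell by 0.15 on the log2 scale. SRF, named to complete the count, was chosen after its value was seen. SRF and MAP2K4 lost their calls on library totals (edgeR adjusted p 0.285 and 0.0574), on TPM values and with no filter. Of 10 genes for the turnover of FOS and JUN proteins 3 rose (GSK3B 0.43 ± 0.05, ITCH 0.20 ± 0.05, GSK3A 0.13 ± 0.04) and 1 fell (TRIB2, -0.98 ± 0.06), or 30% and 10%. On library totals and on TPM values 1 was higher and 2 were lower, and ITCH and GSK3A lost their calls (edgeR adjusted p 0.0798 and 0.0682 on library totals). Without batch 4, 1 was higher.

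Known AP-1 targets had the highest median of the lists read, 0.53, with 17 of 23 tested members higher and 3 lower (73.9% and 13.0%, beside 17.9% and 15.8% of all genes). The cytokine IL11 rose by 1.21 ± 0.10, the chemokine CXCL8 by 1.02 ± 0.14 and the urokinase PLAU by 0.96 ± 0.06. The collagenases MMP1 (-1.16 ± 0.05) and MMP13 (-3.29 ± 0.23), textbook AP-1 targets, fell, as did the growth factor EREG (-0.69 ± 0.23), which is named to complete the count after its value was seen. Known EGR1 targets had 6 higher and 3 lower of 18 tested, with a median of 0.06. These were 33.3% and 16.7%, beside 17.9% and 15.8% of all genes, so the share called lower was near that of all genes. The prostaglandin synthase PTGES rose from 9.09 to 30.0 CPM (1.73 ± 0.13), the heparanase HPSE from 8.17 to 16.1 CPM (0.98 ± 0.05), GDF15 by 0.87 ± 0.16 and THBS1 by 0.80 ± 0.09, while ICAM1 (-0.64 ± 0.05) and IGF2 (-0.97 ± 0.25, named to complete the count after its value was seen) fell. The target lists were written with earlier results of these libraries known and are no independent evidence of a direction.

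**Figure D5:**
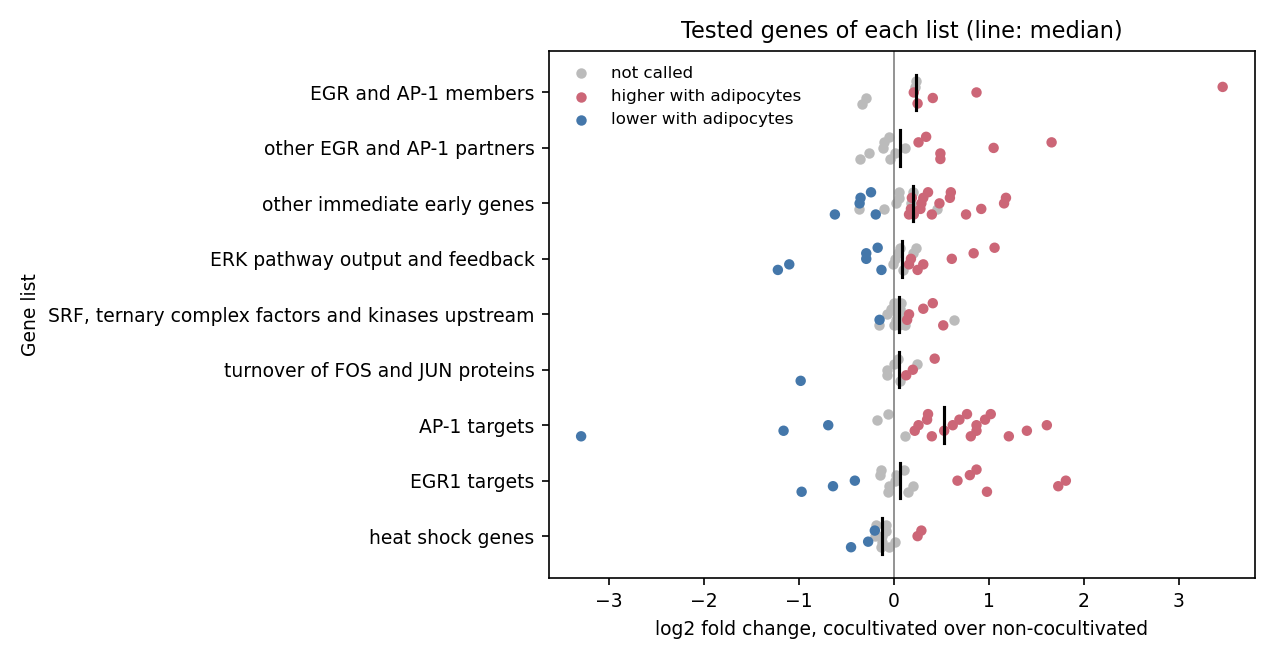
Log2 fold change of every tested gene of each list, with genes called higher in red, called lower in blue and not called in grey, and a line at the list's median. The median is 0.53 for AP-1 targets, 0.23 for the EGR and AP-1 genes and -0.12 for heat shock genes.

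The genes whose log2 ratios in the 5 batches lay closest to those of EGR1, among genes with a mean of at least 5 CPM, were TNFAIP6, KRT81, IL1B, KRT86 and CPA4, with root mean square differences of 0.493, 0.525, 0.582, 0.603 and 0.628. They had log2 fold changes of 3.12, 3.04, 3.03, 2.91 and 2.74, and KRT81 and KRT86 are close paralogs whose levels are uncertain. For FOSL1, the called member with the smallest change, they were ABCB8, MED15, GEM, NGEF and CNPPD1, at differences of 0.0301 to 0.0422.

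Libraries held 39074949 to 51515712 expected counts. On the first principal component of log2 CPM (48.8% of the variance) the cocultivated libraries lay at 18.2 to 40.1 and the others at -31.9 to -20.3, and both libraries of batch 1 lay highest on the second (11.2%). The summed CPM of adipocyte markers was 53.5 to 79.4 without and 159 to 288 with adipocytes (exact two-sided permutation test, p = 0.00794, the smallest possible, adjusted p 0.00992 over 5 lists), carried by FABP4 (27.1 to 149 CPM) and PLIN4 (22.6 to 49.0 CPM). The defining marker ADIPOQ was at 0 CPM in the cocultivated libraries, CIDEA was at 0 in all 10, and CFD was at 4.13 and 4.08 CPM. Of the 6 adipocyte markers tested, edgeR called 3 higher and 1 lower. The third riser was LIPE (1.28 to 2.07 CPM). CIDEC fell from 4.15 to 2.26 CPM (log2 fold change -0.88 ± 0.21, edgeR adjusted p 0.00585), and PLIN1 was not called. The summed stromal markers were lower (10.8 to 12.9 against 5.12 to 6.78 CPM), as were the summed endothelial ones (31.1 to 42.9 against 17.6 to 25.2 CPM). The endothelial fall came from KDR (24.1 to 10.3 CPM). TIE1 was called higher by edgeR (0.229 to 0.527 CPM) and PECAM1 was not called (10.2 and 11.1 CPM). The summed blood cell markers were higher (32.9 to 39.4 against 42.6 to 50.1 CPM), nearly all from CD68, with CD3E and MS4A1 at 0. LYZ fell from 2.18 to 0.566 CPM (log2 fold change -1.95 ± 0.25, edgeR adjusted p 5.57e-05). The stromal, endothelial and blood sums each had the same exact permutation p as the adipocyte sum. PC3 epithelial markers were slightly lower as a sum (mean 3130 ± 105 against 2940 ± 154 CPM, exact permutation adjusted p 0.0476). That list also holds VIM, not an epithelial marker, which made up the largest part of the sum and was not called (1600 and 1740 CPM). Of its 9 genes, edgeR called 6 lower and 2 higher. KRT8 (112 to 58.1 CPM) and HOXB13 (187 to 93.3 CPM) fell most, while STEAP1 (20.3 to 33.9 CPM) and CLDN4 (288 to 396 CPM) rose. These sums are CPM of the library total, while the values of single genes are TMM-scaled. The part of such RNA in the changes above was not tested, and in bulk RNA a change of cell numbers and of RNA per cell cannot be told apart.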

How the data were processed

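RNA was sequenced as 10 PC3 libraries, 5 per group. The deposited gene tables hold RSEM expected counts, TPM and FPKM, per the file headers; FPKM was not used. The submitters' processing notes name Bowtie2 2.4.4, RSEM 1.3.3 and bcl2fastq, and the genome build is not given in the sources used here. Over all genes 83.8% of expected counts were whole within 0.005. Expected counts were rounded and tested with edgeR 4.0.16 (R 4.3.3; filterByExpr with a minimum count of 10 and total of 15, TMM, quasi-likelihood, Benjamini-Hochberg over 15690 genes, threshold 0.05). The standard error is the log2 fold change divided by the root of F. Alternatives used DESeq2 1.42.0 and limma 3.58.1 (log2(TPM + 0.1) or + 1). The labels give each batch number to 1 library per group, so the numbers pair libraries; deviations from group means correlated at 0.329, -0.019, 0.0734, 0.104 and 0.281 in batches 1 to 5. No libraries were duplicates. Libraries held 39074949 to 51515712 counts, and floors cover counting error only. Beyond the members, each list names up to 4 called genes per direction, at a mean of at least 1 CPM; some genes that met this rule are not reported here. The members and lists were chosen with earlier results of these data known.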

Additional observations from a re-analysis of the deposited data

Results flagged for a closer look

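Single libraries stood apart from the other 4 of their group in 14 of 162 groups of 5 checked (Dixon's test, critical value 0.71), where chance gives about 1 in 20. Among the members this was JUND, at 102 CPM in cocultivated library 5 with the next at 76.9 CPM. The same library held the highest ATF3 (53.7 CPM, next 26.9), EPHA4 (10.4, next 8.28), IL1B (280, next 182), NR4A1 (2.09, next 0.779) and ZFP36 (9.04, next 6.15), and non-cocultivated library 5 the highest IER5 (40.1, next 33.8). Batch 1 held the lowest GSK3A (55.5 CPM, next 58.5), MAP2K4 (36.5, next 40.3) and PLAU (897, next 1050) without adipocytes, and the lowest KLF6 (117, next 133), MAP2K4 (42.1, next 45.3) and SGK1 (4.92, next 5.56) with them. TRIB2 was lowest in cocultivated library 3 (16.7 CPM, next 18.7).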

How the results depend on the processing

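Of 75 genes refitted under the 23 alternatives, NAB1, NR4A1 and NR4A2, none of them called in the main fit, changed sign. NAB1 was at -0.04 on library totals, -0.12 on both TPM scales, -0.02 without batch 4 and -0.04 to 0.07 without single libraries. NR4A1 was at -0.10 and -0.02 on log2(TPM + 0.1) and log2(TPM + 1), -0.31 (without cocultivated replicate 5) to 0.31 without single libraries, and -0.35 without batch 5. Without batches 1 and 5, chosen after the values were seen, NR4A1 was at -0.56 ± 0.20 and was called as lower (edgeR adjusted p 0.0497). NR4A2 was at -0.00 on library totals, -0.08 without batch 3, -0.01 without batch 5 and -0.02 to 0.17 without single libraries. The cause was not tested. With the batch as replicate block, 3478 genes were called higher and 3487 lower; 2801 and 2478 were called without it. Scaling by library totals called 2216 and 3555 and gave a median log2 fold change of -0.06, beside -0.01 in the main fit. On TPM values limma called 1656 genes higher with a pseudocount of 0.1 and 1707 with 1. The number of members called lower was 1 under both pseudocounts (FOSB) and 1 without batches 1 and 5 (FOS), the latter chosen after seeing the data. Leaving out 1 library gave 2430 to 3041 genes higher and 2057 to 2675 lower, and leaving out 1 batch 2116 to 3033 and 1702 to 2651; each gave 4 to 6 members higher and 0 lower. The difference in summed PC3 epithelial markers lost its call in 7 cases when 1 library was left out, at -246 to -144 CPM. Differences for the other marker lists ranged from 120 to 152 (adipocyte), -6.44 to -5.88 (stromal), 9.02 to 11.1 (blood) and -14.6 to -11.7 CPM (endothelial). Calls of HSPB1 and CCN2 were lost under 14 and 11 alternatives, and those of SRF, EREG and IER5L under 15, 12 and 9. Depth limits EGR1 without adipocytes and EGR3.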
